A study of Mus musculus with 2 samples.

Results

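The genes that build the mucus layer of the mouse colon were followed in a single-cell RNA-seq table of wild-type colon. They were Muc2, Muc1, Muc4, Muc13, Fcgbp, Clca1, Zg16, Tff3, Agr2 and Spink4, 10 of the 17809 genes listed. They were taken by name and not by a limit on their levels, but earlier results of these data were known at that time. Their values were read in the 3008 of 7495 cells (40.1%) with an Epcam value of at least 5, Epcam being a surface adhesion protein of epithelial cells. The cells came from the colon of C57BL/6 mice that carried no reporter and received no treatment. Colons of 3 female mice aged 8 to 12 weeks were pooled into 1 library, in which sorted epithelial and non-epithelial cells were mixed. A second library held mesenchymal cells sorted for GFP from the reporter strain Pdgfra-H2B-eGFP, in which the Pdgfra locus drives a nuclear fluorescent protein, and it served only as a further measure of background. It also pooled 3 female mice of 8 to 12 weeks. Each condition was 1 library and cells were not assigned to mice, so no test across mice was possible and every ratio below describes this library. Intervals of shares of cells are exact Clopper-Pearson 95% intervals that cover counting error only.

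The values were UMI counts corrected by the authors to a common depth, called corrected counts here. They summed to between 6120 and 16389 per cell (median 8972), and a cell held between 706 and 4747 genes (median 2804). The libraries shared 1 cell barcode. As the correction was already applied, the depth of each cell as sequenced is unknown, and because reads were counted at the 3′ end, corrected counts of different genes compare transcripts and not lengths.

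Colonic mucus is a gel of the secreted mucin Muc2, whose chains are folded and cross-linked in the endoplasmic reticulum, densely glycosylated in the Golgi and packed into granules by goblet cells. The gel carries further secreted proteins, and the cell surface beneath it is covered by transmembrane mucins that stay anchored in the membrane. In the mouse colon, a second kind of secretory cell marked by Reg4 sits near the base of the crypts beside the stem cells.

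Clustering without the 10 genes gave 11 clusters. A group was named where at least 3 markers of a cell type passed 2-fold, and none of the 10 genes was a marker. The first goblet-like cluster had 323 cells, 8 goblet markers past 2-fold (such as Spdef, a transcription factor of secretory cells) and a mean Reg4 of 4.43 corrected counts. The second had 268 cells, 7 goblet markers past 2-fold and a mean Reg4 of 44.9. Since Muc2 turned out higher in the first, they are called Muc2-high goblet-like and Reg4-high secretory-like cells. Colonocyte-like cells numbered 547 in 2 clusters, crypt-like cells (stem cell and proliferation markers) 781 in 2 clusters and enteroendocrine-like cells 83. The other gated cells were 399 cells of an unnamed cluster led by Krt36 and Defb45, 277 cells of an unnamed cluster with a median of 1686 genes, and 330 cells in clusters with stromal markers. Cells held a median of 3361 genes in Muc2-high goblet-like, 3148 in Reg4-high secretory-like, 2901 in colonocyte-like and 3372 in crypt-like cells. As a cell type that should lack the 10 genes, 1969 cells with Epcam at 0 and Col1a1 of at least 5 were taken as the stromal reference, with a median of 2797 genes.

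Every one of the 10 genes is protein coding in GENCODE M21 on GRCm38, the build that the authors call mm10. Muc2 lies at chr7:141690340-141754693 on the plus strand, Agr2 at chr12:35992907-36004087 (plus), Spink4 at chr4:40920052-40931395 (plus) and Fcgbp at chr7:28071236-28120862 (plus). Zg16 lies at chr7:127050156-127087328 (minus), Clca1 at chr3:145003817-145032776 (minus) and Tff3 at chr17:31125306-31129646 (minus). The transmembrane mucins lie at chr16:33794037-33819934 (Muc13), chr16:32735886-32782391 (Muc4) and chr3:89229057-89233381 (Muc1), all on the plus strand. Muc4 overlaps Muc20 on the opposite strand, and because the sources do not say how the strand was used in counting, the Muc4 values are uncertain to that extent. Muc20 had a mean of 0.0279 corrected counts in Muc2-high goblet-like cells.

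Because the members below fall into genes that were present in nearly every secretory cell and genes that were concentrated in few of the Muc2-high goblet-like cells, the 250 bases before the start are shown for Muc2 and Agr2 of the former, Fcgbp of the latter, and Muc13, the member highest in colonocyte-like cells. The sequences are from RefSeq on GRCm38.p6, all on the plus strand and written 5′ to 3′, at chr7:141690090-141690339, chr12:35992675-35992924, chr7:28070986-28071235 and chr16:33793787-33794036. RefSeq places the start of Agr2 downstream of the GENCODE start given above, so the last bases of its window lie inside the GENCODE gene.
Muc2: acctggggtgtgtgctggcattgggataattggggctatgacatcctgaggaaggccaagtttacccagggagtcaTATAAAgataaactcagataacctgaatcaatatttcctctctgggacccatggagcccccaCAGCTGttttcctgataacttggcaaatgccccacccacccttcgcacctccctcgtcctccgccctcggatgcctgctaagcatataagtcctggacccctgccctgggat
Agr2: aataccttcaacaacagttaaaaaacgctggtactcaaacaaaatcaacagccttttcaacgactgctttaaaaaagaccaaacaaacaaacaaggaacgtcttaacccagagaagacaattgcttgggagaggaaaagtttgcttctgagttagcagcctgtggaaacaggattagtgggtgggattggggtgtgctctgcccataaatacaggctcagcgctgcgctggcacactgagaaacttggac
Fcgbp: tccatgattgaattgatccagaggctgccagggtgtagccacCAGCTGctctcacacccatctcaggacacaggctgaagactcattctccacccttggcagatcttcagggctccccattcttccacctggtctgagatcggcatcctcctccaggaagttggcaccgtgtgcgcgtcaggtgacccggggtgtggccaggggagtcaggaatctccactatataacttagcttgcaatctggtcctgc
Muc13: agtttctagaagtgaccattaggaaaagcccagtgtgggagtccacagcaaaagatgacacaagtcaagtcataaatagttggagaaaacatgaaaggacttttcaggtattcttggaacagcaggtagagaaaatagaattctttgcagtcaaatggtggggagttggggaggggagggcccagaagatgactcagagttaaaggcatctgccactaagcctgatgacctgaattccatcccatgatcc
Capitals mark matches to the E-box CAGCTG, the forkhead motif TGTTTAC, the caudal motif CAATAAA, the stress-response motif TGACGTG and the TATA motif TATAAA, searched on both strands in the windows of the 6 members with an entry. CAGCTG, a palindrome, occurred once in each of the Muc2 and Fcgbp windows, with its first base 112 and 208 bases before the start, and in 13.0% of all 32851 windows of this length. TATAAA, present in 12.4% of all windows, began 174 bases before the start in Muc2, and also 31 bases before it in Muc1 and 36 before it in Muc4. None of these windows held the forkhead, caudal or stress-response motif, which occurred in 3.17%, 4.20% and 1.65% of all windows. These are matches of letters in a window and not binding sites.

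Muc2 was the most abundant member in Muc2-high goblet-like cells. It ranged there from 8 to 1284 corrected counts with a median of 330 and a mean of 371 (n = 323 cells). In Reg4-high secretory-like cells it ranged from 0 to 464 with a median of 46 and a mean of 58.6 (n = 268 cells), a mean 6.33-fold lower. The quartile ranges, 189 to 515.5 and 20.75 to 77.25, did not overlap. Muc2 was above 0 in 100% and 98.5% of these cells. In colonocyte-like and crypt-like cells its median was 0 and its means were 2.84 and 4.56. The share of cells above 0 was 12.8% (10.1 to 15.9) in colonocyte-like and 21.8% (18.9 to 24.8) in crypt-like cells. Both lay below the 32.6% of the stromal reference (30.5 to 34.7), which is thus no exact background for these cells. The shares alone do not show expression. Stromal reference cells had at most 12 corrected counts, and at least 10 were found in 16 colonocyte-like and 39 crypt-like cells. The means of these 2 classes came from few cells, 12 colonocyte-like cells holding 90.5% of the Muc2 of their class and 12 crypt-like cells 69.5%.

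Agr2, a protein disulfide isomerase of the endoplasmic reticulum needed for making Muc2, had the same order in the secretory cells. It ranged from 27 to 733 (median 186, mean 204) in Muc2-high goblet-like cells and from 7 to 253 (median 68.5, mean 74.5) in Reg4-high secretory-like cells, a 2.74-fold difference in means, and no cell of either class was at 0. Unlike Muc2 it was also above 0 in most crypt-like cells. Their median was 3, their mean 12.6 and their share above 0 81.4% (78.5 to 84.1), against 26.5% in the stromal reference. It was above 0 in 97.5% of the cells of the unnamed Krt36 cluster at a mean of 8.34. In colonocyte-like cells its median was 0, its mean 2.27 and its share 30.2% (26.3 to 34.2), near that of the stromal reference.

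Spink4, a Kazal-type protease inhibitor secreted by goblet cells, did not separate the secretory classes. It ranged from 0 to 906 (median 164, mean 185) in Muc2-high goblet-like and from 3 to 456 (median 130.5, mean 151) in Reg4-high secretory-like cells, with overlapping quartile ranges. Its mean was 1.36 in colonocyte-like and 5.48 in crypt-like cells, where 8.41% and 24.6% of cells were above 0, against 26.4% of stromal reference cells. These shares were not above that of the stromal reference. However, 47 of 781 crypt-like cells had at least 10 corrected counts, while stromal reference cells had at most 5.

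Fcgbp, Clca1, Zg16 and Tff3 differed from these in the Muc2-high goblet-like class, where 12 of 323 cells held between 52.1% (Tff3) and 99.2% (Zg16) of their corrected counts. In the Reg4-high secretory-like class they were spread more widely, and 12 of 268 cells held 38.2% of Fcgbp and 46.5% of Clca1. Both patterns describe the reported clustering, and the cells of each class changed with how the classes were made. Over alternative ways of processing, the log2 ratio of Zg16 in Muc2-high goblet-like over Reg4-high secretory-like cells ran from -8.83 to 1.81. Fcgbp is a large mucus protein with domains like those of mucins, and Clca1 is a secreted metalloprotease that processes Muc2. Zg16 is a lectin that binds bacterial peptidoglycan and Tff3 is a trefoil peptide of mucosal repair. Zg16 was above 0 in 12.1% (8.73 to 16.1) of Muc2-high goblet-like cells, where it ranged from 0 to 2709 with a median of 0 and a mean of 45.7. It was above 0 in 54.1% (47.9 to 60.2) of Reg4-high secretory-like cells, from 0 to 1808 with a median of 1 and a mean of 114. The share in Muc2-high goblet-like cells is no higher than that in the stromal reference, 15.1%, so the lower levels among them cannot be told from background. Stromal reference cells had at most 47 corrected counts.

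Clca1 ranged from 0 to 1364 in Muc2-high goblet-like cells, with a median of 0 and a mean of 24.2, and 19.8% of cells above 0. In Reg4-high secretory-like cells it ranged from 0 to 503, with a median of 2, a mean of 20.3 and 61.9% above 0. In the reported clustering the means were alike, while the shares of cells above 0 were not. The mean in Muc2-high goblet-like cells came from few cells, 12 of 323 holding 82.7% of their Clca1. Over alternative ways of processing, the log2 ratio of Clca1 in Muc2-high goblet-like over Reg4-high secretory-like cells ran from -6.02 to 3.03. Fcgbp ranged from 0 to 387 (median 1, mean 12.5, 51.4% above 0) in the former and from 0 to 270 (median 6.5, mean 17.5, 88.1% above 0) in the latter. Tff3 ranged from 0 to 384 (median 0, mean 19.7, 45.5% above 0) in the former and from 0 to 505 (median 36.5, mean 62.0, 80.6% above 0) in the latter. In the stromal reference 2.59% of cells were above 0 for Clca1, 2.13% for Fcgbp and 9.04% for Tff3. When each cell was thinned to 3000 corrected counts, the order of the secretory classes was the same for each of these genes, for example 13.6% against 48.5% of cells above 0 for Clca1 and 9.60% against 45.5% for Zg16.

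**Figure D1:**
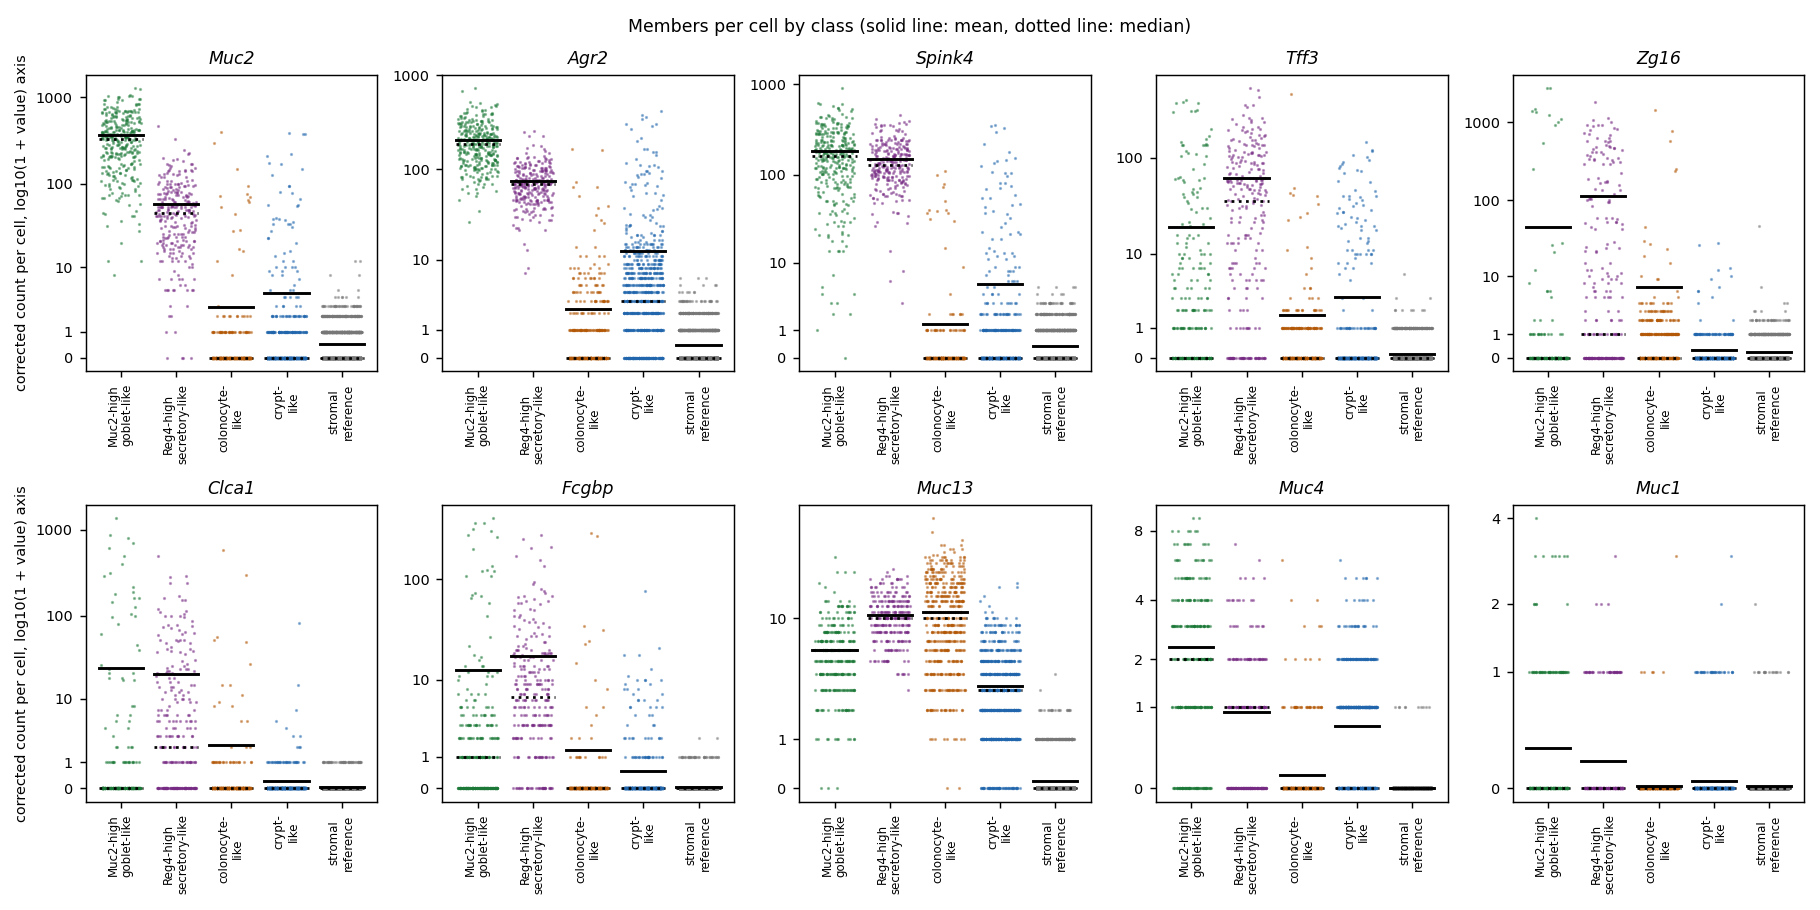
Corrected counts of each member in every cell (points) of the Muc2-high goblet-like, Reg4-high secretory-like, colonocyte-like and crypt-like classes and of the stromal reference, on a log10(1 + value) axis, with the mean as a solid and the median as a dotted line. Muc2, Agr2 and Spink4 fill both secretory classes, while for Zg16 and Clca1 the mean of the Muc2-high class, 45.7 and 24.2, lies far above its median of 0.

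The 4 genes were high together in part of the cells. A cell was counted as high in a gene from 10 corrected counts, a limit chosen after the values were seen. Among Muc2-high goblet-like cells, 237 of 323 (73.4%) were high in none of the 4 genes, 53 in 1, 16 in 2, 6 in 3 and 11 in all, so that most of the 86 cells high in any were high in 1. Among Reg4-high secretory-like cells, 65 of 268 (24.3%) were high in none, 83 in 1, 35 in 2, 35 in 3 and 50 in all. High levels of 3 or 4 of the genes were thus found in 5.26% of the former and 31.7% of the latter. With the limit at 5 these shares were 5.88% and 41.4%, and with the limit at 20 they were 4.33% and 19.8%, so cells near the limit matter in the Reg4-high class, where levels formed a range. In crypt-like cells 62 of 781 were high in at least 1 gene and none in all, and Tff3 alone accounted for most of them, with 57 cells at 10 or more.

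**Figure D2:**
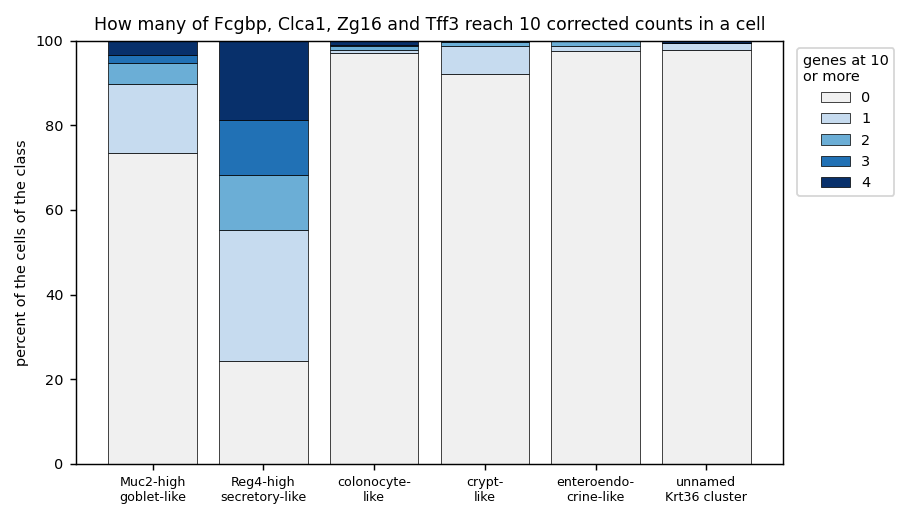
Percent of the cells of each class (bars, stacked to 100) in which 0 to 4 of Fcgbp, Clca1, Zg16 and Tff3 reached 10 corrected counts. All 4 genes were high in 11 of 323 Muc2-high goblet-like cells and 50 of 268 Reg4-high secretory-like cells.

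Cells high in 3 or 4 of these genes also held Muc2, Agr2 and Spink4, each above 0 in 100% of them in both secretory classes. Within the Muc2-high goblet-like class, the median Muc2 was 386 in the 17 cells high in 3 or 4 genes, 144 in the 69 cells high in 1 or 2 and 371 in the 237 cells high in none. The lowest Muc2 was thus found in the cells in between, in which Tff3 was high with a median of 22 and Zg16 was near 0 with a mean of 0.246. Median Agr2 was 128, 211 and 185 in the same order, and median Spink4 was 121, 145 and 174. In Reg4-high secretory-like cells the median Muc2 was 62 in the 85 cells high in 3 or 4 genes, 21 in the 118 cells high in 1 or 2 and 62 in the 65 cells high in none, the same pattern at a lower level. Median Reg4 was 27, 43 and 41 in these cells. The median number of genes found in a cell was 2910, 3290 and 3408 in the Muc2-high class and 3015, 3158 and 3224 in the Reg4-high class, lowest in the cells high in 3 or 4 genes. Scrublet, a doublet caller, marked none of these cells, but it marked 7 of 7495 cells in all (0.0934%), too few for its calls to be used.

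Other genes of the cells high in 3 or 4 of the 4 genes are named here after their values were seen. Spink1, another Kazal-type inhibitor, had a mean of 63.2 in such Muc2-high goblet-like cells against 0.127 in those high in none, and 34.2 against 0.323 in Reg4-high secretory-like cells. Ang4, an antimicrobial ribonuclease, averaged 87.8 against 1.14 in the Muc2-high class and 0.929 against 0.0769 in the Reg4-high class. Rep15 averaged 9.35 against 2.35 and 7.73 against 3.66. Spdef went the other way in the Muc2-high class, with 2.18 against 6.65.

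Correlations of ln(1 + corrected count) across the cells of a class, which share 1 library, were computed for each pair of members. Within Muc2-high goblet-like cells (n = 323) Pearson's r was 0.84 between Fcgbp and Clca1, 0.73 between Clca1 and Zg16, 0.69 between Fcgbp and Zg16 and 0.53 between Fcgbp and Tff3. It was -0.50 between Muc2 and Tff3. Within Reg4-high secretory-like cells (n = 268) the corresponding values were 0.76, 0.68, 0.63, 0.61 and -0.28. Tff3 was less related to Clca1 (0.34 in the Muc2-high and 0.41 in the Reg4-high class) and to Zg16 (0.50 and 0.44). Muc2 and Agr2 were nearly unrelated within the classes, with r of -0.11 and 0.09, although r was 0.81 over all 3008 gated cells.

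**Figure D3:**
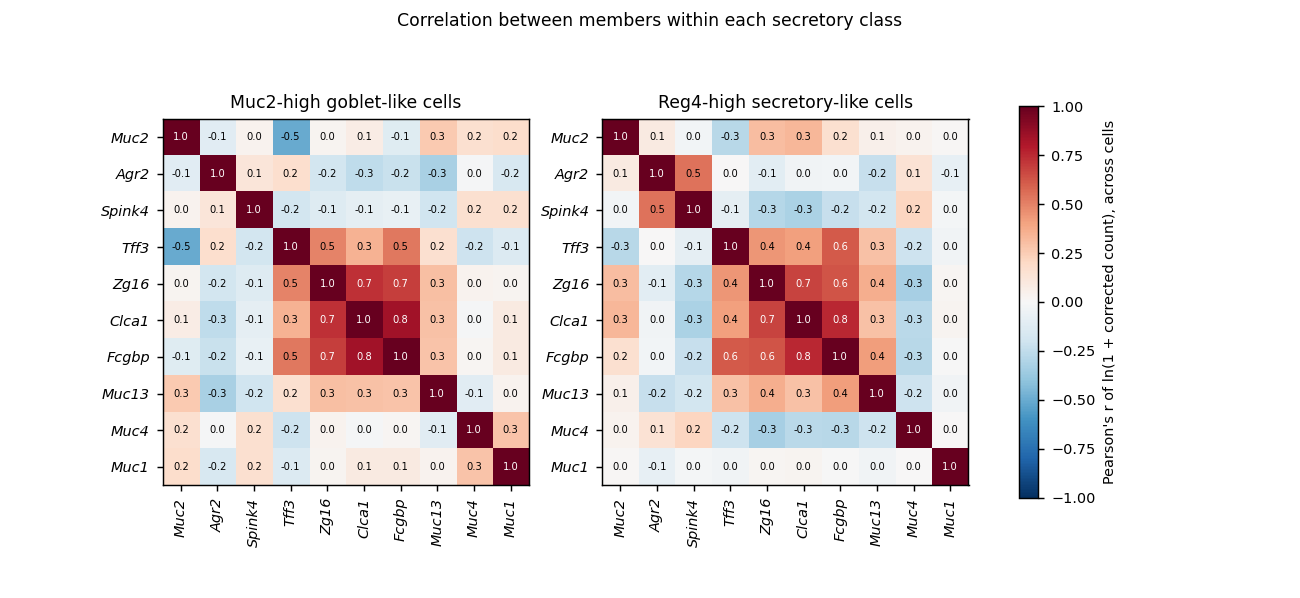
Pearson's r of ln(1 + corrected count) between the members across the 323 Muc2-high goblet-like cells (left) and the 268 Reg4-high secretory-like cells (right), from -1 (blue) to 1 (red). Fcgbp, Clca1 and Zg16 form a block in both classes, to which Tff3 is more loosely tied. Muc2 against Tff3 is the most negative pair on the left at -0.50.

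Of the transmembrane mucins, Muc13 was found in every epithelial class. It ranged from 0 to 44 in colonocyte-like cells (median 10, mean 11.0), from 3 to 21 in Reg4-high secretory-like cells (median 10, mean 10.4), from 0 to 25 in Muc2-high goblet-like cells (median 6, mean 6.03) and from 0 to 17 in crypt-like cells (median 3, mean 3.22). Its share of cells above 0 was between 92.2% and 100% in these 4 classes and 8.99% in the stromal reference. The unnamed Krt36 cluster had a mean of 10.2. Among colonocyte-like cells, the cluster of 193 cells led by genes such as Saa1 and Aqp8 had a median of 17 (quartiles 14 to 21), and the cluster of 354 cells led by genes such as Cyp2c55 and Car1 had a median of 7 (quartiles 4 to 10). The quartile ranges of these clusters did not overlap, whereas those of neighbouring classes in the order of the means all did.

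Muc4 had low values, highest in Muc2-high goblet-like cells, where it ranged from 0 to 9 with a median of 2, a mean of 2.34 and 78.6% of cells above 0. Its mean was 0.922 in Reg4-high secretory-like, 0.699 in crypt-like and 0.119 in colonocyte-like cells, and 48.0% of crypt-like but 7.86% of colonocyte-like cells were above 0. As 0.508% of stromal reference cells were above 0, the crypt-like share is above background. Muc1 was the least abundant member, above 0 in 20.1% (15.9 to 24.9) of Muc2-high goblet-like cells at a mean of 0.269, in 15.7% of Reg4-high secretory-like cells, in 4.23% of crypt-like cells and in 1.10% (0.404 to 2.37) of colonocyte-like cells, the last near the 0.965% of the stromal reference.

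The comparison of the 2 secretory classes asked how the mucus genes differ between goblet cells and Reg4-marked cells. A gene was counted as higher or lower where the class means differed at least 2-fold (pseudocount 0.01) and either was at least 0.05. In Muc2-high goblet-like over Reg4-high secretory-like cells, 3 of 10 members were higher (Muc2, Agr2 and Muc4, with log2 ratios of 2.66, 1.45 and 1.33), beside 10.7% of the 10676 genes compared. A further 2 were lower (Tff3, -1.65, and Zg16, -1.32), beside 6.13% of genes. The median log2 ratio was 0.27 over the members and 0.08 over all genes compared. Over the alternatives the log2 ratio of Muc2 was between 0.93 and 2.88, below 2-fold only at the highest resolution of the clustering, and that of Agr2 between 1.26 and 1.51. The ratio of Zg16 moved with the cells kept and with how the classes were made. Leaving out the cells high in 3 or 4 of Fcgbp, Clca1, Zg16 and Tff3 moved the log2 ratio of Zg16 to -6.26. That exclusion used Zg16 itself. The 6 other clusterings put the Zg16 ratio between -3.72 and -8.83, with Fcgbp and Clca1 lower as well. Classes built from marker scores of each cell put the Zg16 ratio at 1.81.

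In both secretory classes together over colonocyte-like cells, which contrasts mucus-secreting with absorptive cells, 9 of 10 members were higher, beside 26.6% of 10735 genes, and none was lower, beside 12.9%. The log2 ratio was largest for Spink4 (6.95), Muc2 (6.33) and Agr2 (5.99) and smallest among the 9 for Muc1 (3.27). Muc13 was at -0.45. The median was 3.60 for the members and 0.40 for all genes compared. The count of 9 was obtained in all alternatives that give a count, except that without cells above 10% mitochondrial corrected counts, which gave 7 and left 88 of 547 colonocyte-like cells. The median mitochondrial share was 12.7% in colonocyte-like, 9.52% in crypt-like, 6.30% in Muc2-high goblet-like and 6.54% in Reg4-high secretory-like cells, and its part in these ratios was not tested.

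Colonocyte-like cells were then compared with crypt-like cells, which were named by stem cell and proliferation markers. In the former 4 members were higher (Zg16 4.74, Clca1 3.36, Muc13 1.77 and Fcgbp 1.44 on the log2 scale), beside 12% of 10872 genes. Lower were 3 members (Agr2 -2.47, Muc4 -2.46 and Spink4 -2.01), beside 32.2% of genes. Muc1 was below the minimum mean in both classes. The crypt-like class also held cells with goblet markers. Atoh1 and Spdef averaged 1.9 and 1.88 in its 60 cells high in 1 or 2 of Fcgbp, Clca1, Zg16 and Tff3. In the 719 crypt-like cells high in none these means were 0.0348 and 0.0640. Agr2 averaged 91.7 in the 60 and 5.88 in the 719 cells, and Spink4 averaged 49.0 and 1.56. The values for the secreted genes rested on 12 of the 547 colonocyte-like cells, those high in at least 2 of Fcgbp, Clca1, Zg16 and Tff3. Without them the count of higher members was 2 (Zg16, 1.40, and Muc13) and that of lower members was 6, and Fcgbp was at -3.01 and Clca1 at -0.92. When crypt-like cells high in at least 2 of the 4 genes were left out as well, Fcgbp was at -1.96, Clca1 at 0.59 and Zg16 at 1.76. Without the cells of either class high in any of the 4 genes, Fcgbp was at -0.34, Clca1 at 0.75, Zg16 at 2.12 and Tff3 at 1.09. All 3 exclusions used the genes compared, and leaving out colonocyte-like cells alone lowers these ratios by construction. The sign of Clca1 thus turned only when colonocyte-like cells alone were left out, and Fcgbp was below 0 in all 3 cases. These 12 cells had a mean of 283 corrected counts of Zg16, 103 of Muc2 and 1.42 of the goblet marker Tpsg1, beside 42.1 of the colonocyte marker Car1. In the other 535 colonocyte-like cells the means were 0.667, 0.602, 0.00935 and 110.

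**Figure D4:**
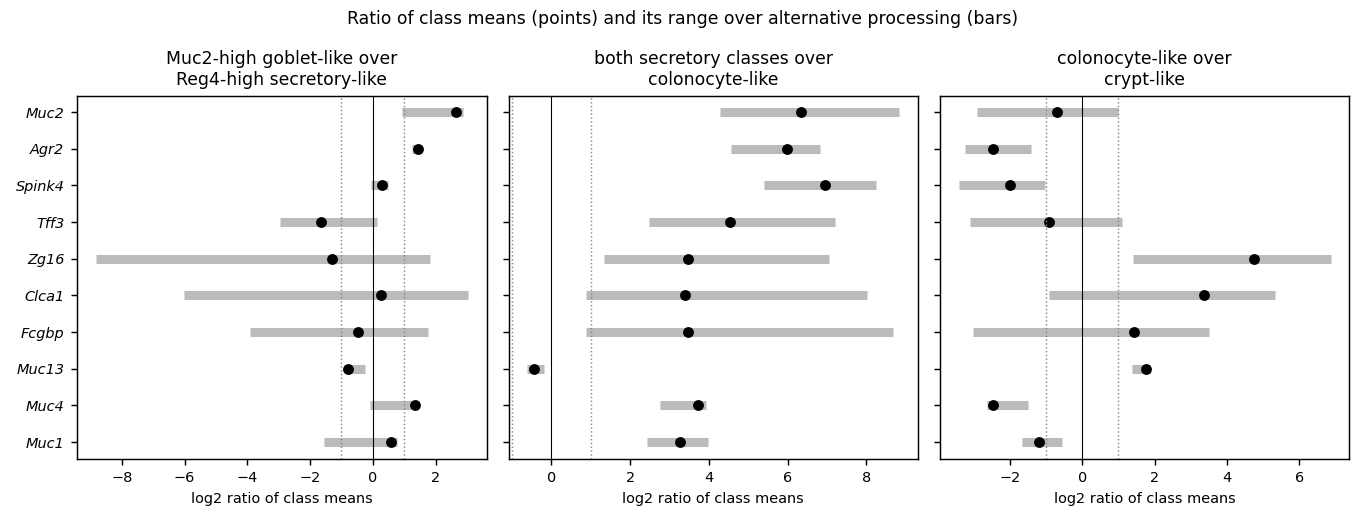
Log2 ratio of the class means of each member (points) in the 3 comparisons, with its range over the alternative ways of processing (grey bars) and dotted lines at 2-fold. Muc13 has short bars in all panels, while Zg16 in the left panel reaches from -8.83 to 1.81 around its value of -1.32.

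Zg16 and Tff3 were also found at low level in many of the remaining colonocyte-like cells. Zg16 was above 0 in 32.9% and Tff3 in 19.1% of these 535 cells, against 15.1% and 9.04% of the stromal reference, while Muc2 was above 0 in 11.0%, against 32.6%. The ratio of Zg16 to Muc2 was 0.334 in secretory cells, 0.432 in the stromal reference and 1.11 in these colonocyte-like cells, and that of Tff3 to Muc2 was 0.169, 0.213 and 0.590. For these 2 genes the stromal reference was thus nearer to the secretory cells than these colonocyte-like cells were. This was not particular to Zg16 and Tff3. In the same order of cells, the ratio to Muc2 was 0.0350, 0.222 and 18.2 for Muc13. It was 0.633, 0.818 and 2.77 for Agr2, and Muc4 and Spink4 also followed this pattern. Muc1 did not, with ratios of 0.000989, 0.0220 and 0.0155. For Fcgbp and Clca1 the stromal reference lay below the secretory cells and these colonocyte-like cells lay above them. The share of Zg16 was 43.0% (35.9 to 50.3) in the Saa1 and Aqp8 cluster and 29.4% (24.7 to 34.4) in the Cyp2c55 and Car1 cluster. Thinned to 3000 corrected counts, 17.9% of all colonocyte-like and 5.49% of stromal reference cells were above 0 for Zg16.

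The sum of the 10 members took a mean of 8.58% of a cell's corrected counts in Muc2-high goblet-like cells (lowest 2.40%, median 7.76%, highest 39.9%) and 5.12% in Reg4-high secretory-like cells (lowest 1.11%, median 3.99%, highest 32.5%). It was 0.290% in colonocyte-like and 0.309% in crypt-like cells, with medians of 0.126% and 0.0836%, and 0.0189% in the stromal reference. Muc2 made up 42.6% of the sum in Muc2-high goblet-like and 11.5% in Reg4-high secretory-like cells. Over the stromal reference, the log2 ratio of the means was between 3.79 (Muc1) and 9.62 (Muc2) in Muc2-high goblet-like cells and between 3.20 (Muc1) and 9.16 (Tff3) in Reg4-high secretory-like cells.

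Enteroendocrine-like cells had Tff3 above 0 in 54.2% (42.9 to 65.2) of 83 cells, with a median of 1 and a mean of 2.84, and Muc2 in 37.3% with a median of 0. Within crypt-like cells, the cluster of 231 cells with mitotic genes had higher means than the cluster of 550 cells with Lgr5 and replication genes for Muc2 (13.9 and 0.642), Agr2 (26.7 and 6.72), Spink4 (16.2 and 0.993) and Tff3 (6.45 and 1.72), while the median of Muc2 and of Spink4 was 0 in both. Cells with stromal markers inside the Epcam gate had Muc2 above 0 in 67.3% of 330 cells at a mean of 34.5, compared with 32.6% and 0.463 in the stromal reference. Just inside the gate, at Epcam values of 5 and 6, Muc2 averaged 18.0 (median 1, n = 87 cells), and just outside it, at 3 and 4, it averaged 3.02 (median 1, n = 172 cells). In the 4409 cells of the reporter library each member was above 0 in between 0.136% and 2.63% of cells, and Epcam in 1.43%. Those cells held a median of 3150 corrected counts, against 8972 in the wild-type library. Per the paper they were made with another version of the assay, so the shares of the libraries are not directly comparable.

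Genes that act on mucins followed the secretory classes in part. The list for mucin glycosylation and sulfation had 34 genes, of which 20 of 29 compared were higher in secretory than in colonocyte-like cells and 5 were lower, beside 26.6% and 12.9% of all genes compared. The largest ratios were those of B3gnt6, which extends the core of mucin sugars (1.67 and 0.0146), Galnt5, which starts them, and Chst4, a sulfotransferase. Between the secretory classes 13 of 28 were higher in Muc2-high goblet-like cells, with a median log2 ratio of 0.86, and 4 were lower, beside 10.7% and 6.13% of all genes compared. B3gnt6 had means of 2.98 and 0.0858, whereas Gal3st2, another sulfotransferase, had 0.0650 and 0.840. Of 23 genes for folding in the endoplasmic reticulum, 17 were higher in secretory than in colonocyte-like cells and none lower, led by Pdia5, Txndc5 and Ern2, the last a stress sensor of mucus-secreting cells. Of these 23, 8 were higher in Muc2-high goblet-like than in Reg4-high secretory-like cells and none lower. Of 14 genes of granule packaging and exocytosis compared, 9 were higher and 2 lower in secretory than in colonocyte-like cells, the latter near the 12.9% of all genes, and among the higher were the exocytosis genes Syt7 and Sytl2.

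Among other mucins, Muc3 had a mean of 18.1 in colonocyte-like, 2.68 in crypt-like and 0.609 in secretory cells. Its mean, like that of Muc13 and unlike that of Muc2, was highest in colonocyte-like cells. For Muc13 this lead was small, with 11.0 beside 10.4 in Reg4-high secretory-like cells. Unlike Muc3, Muc13 was also higher in secretory (8.03) than in crypt-like cells (3.22). Muc3a, listed under a symbol of its own, had 0.863 in colonocyte-like, 1.10 in crypt-like and 0.660 in secretory cells. Whether reads were split between Muc3 and Muc3a was not tested. Among other secreted products, Retnlb, an antimicrobial goblet cell protein, had means of 26.8 in Muc2-high goblet-like and 0.187 in Reg4-high secretory-like cells. The former mean did not stand for the whole class. In its 290 cells high in 0 or 1 of Fcgbp, Clca1, Zg16 and Tff3 the median of Retnlb was 0. Retnlb was above 0 in 46.2% of these and in 69.7% of the other 33 cells. Tgm3, a transglutaminase, and Lypd8, a protein that keeps bacteria from the epithelium, belonged to colonocyte-like cells with means of 14.7 and 147, compared with 0.0525 and 10.4 in crypt-like cells. Of ion transport genes, Best2, a bicarbonate channel, had 7.29 in Reg4-high secretory-like and 0.523 in Muc2-high goblet-like cells.

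The genes most like each member over the 3008 gated cells, by Pearson's r of ln(1 + corrected count) among 10424 genes, were Spink4 (0.89) and Gm1123 (0.86) for Muc2, Ramp1 (0.90) for Spink4, Spink4 (0.84) for Agr2, Clca1 (0.82) for Fcgbp and Fcgbp (0.76) followed by Best2 (0.61) for Tff3. For Zg16 they were Spink1 (0.74) and Clca1 (0.71), for Muc13 Ckmt1 (0.68) and Tspan1 (0.62), for Muc4 Cd177 (0.52) and Spdef (0.50), and for Muc1 Nov (0.32). Such values hold differences both between and within classes of cells. For Fcgbp and Clca1 r was about as high within the secretory classes, while for Muc2 and Agr2 it was not.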

How the data were processed

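Single-cell RNA-seq was analysed from 2 libraries, 1 per condition. Per the labels and methods, reads were aligned to mm10 with Cell Ranger and filtered in Seurat 3.1 under R 3.6.2. The score values were deposited by the authors as whole numbers, and are UMI counts after SCTransform correction. A table of natural log values was deposited beside it, each equal to ln(1 + corrected count), which was checked on every value. A count test was not used, since the corrected values are not raw counts.

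Cells with Epcam of at least 5 were clustered with scanpy 1.11.5 in Python 3.11.15 on 1939 variable features, with the members and pathway lists left out, 30 principal components, 20 neighbours and a Leiden resolution of 0.4. A cluster took the name of the list with most markers past 2-fold that 10% or more of its cells held, a scoring rule set after the clusters were seen. A goblet-like cluster counted as Reg4-high from 4-fold the Reg4 of the lowest. Levels are means per cell, and ratios used a pseudocount of 0.01 and a minimum mean of 0.05. The ratio was tested on simulated data with the same spread for every gene, which does not cover genes concentrated in few cells. Named are the members, the 2 genes most correlated with each, and up to 3 genes per pathway list and comparison with the largest ratio (mean of at least 0.1 in either class). Cell markers and genes of cells high in several members are named beside them. The members and lists were chosen with earlier results of these data known. Numbers of cells are not replicates, so no p-values were computed.

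The alternatives changed the Epcam limit, the resolution, the principal components, the variable features, the class rule, the cells kept, the measure, the fold and the minimum mean. Leaving out high Scrublet scores or cells high in any or several of 4 genes was chosen after seeing the data.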

Additional observations from a re-analysis of the deposited data

How the results depend on the processing

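No paired analysis was possible because each condition is 1 library and the shared replicate number 1 only names it. Of 518 log2 ratios of members under the alternatives, 369 stayed within 1.5-fold of the reported ratio, 137 moved further and 12 called ratios changed sign, and of 258 counts and sums 218 stayed within 1.5-fold.

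In Muc2-high goblet-like over Reg4-high secretory-like cells, 3 members higher became 1 at the highest resolution (where Muc2 was at 0.93) and when 4-fold was needed, and 6 with classes from marker scores per cell. The 2 lower members became 4 with Epcam of at least 1 or 10, at the next higher resolution, with 15 principal components and with the members and lists among the variable features, 5 at the highest resolution, and 0 with marker scores or 4-fold. Muc4 changed sign to -0.076 at the highest resolution, and with marker scores Zg16 changed to 1.81 and Tff3 to 0.13. In colonocyte-like over crypt-like cells, 4 higher became 2 at the highest resolution, with 15 principal components, the members among the variable features, marker scores, 4-fold, and 3 exclusions of cells high in several of Fcgbp, Clca1, Zg16 and Tff3 (12 colonocyte-like cells, these and crypt-like cells high in at least 2, and cells of any class high in 3 or 4). The 3 lower members became 6 with Epcam of at least 1, 15 components, the members among the features and the 3 exclusions, 7 at the highest resolution and 5 with marker scores. Fcgbp changed sign there to -1.10 (highest resolution), -1.47 (15 components), -1.14 (members among the features), -0.51 (marker scores), -3.01 (without 12 colonocyte-like cells), -1.57 (without cells high in 3 or 4 genes), -1.96 (without cells of both classes high in at least 2) and -0.34 (high in any). Clca1 changed to -0.92 without the 12 cells, but was at 0.59 and 0.75 where crypt-like cells were left out by the same limit. All of these exclusions used the genes compared.

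The members' sum in Reg4-high secretory-like cells was 3.33% with marker scores. In colonocyte-like cells it was 0.179% with 15 components, 0.183% with the members among the features, 0.186% with marker scores, 0.790% without cells above 10% mitochondrial, 0.126% as a median, 0.157% without the 12 cells (with or without such crypt-like cells), 0.148% without cells high in any of the 4 genes and 0.187% without cells high in 3 or 4 genes. In crypt-like cells it was 0.0836% as a median, 0.133% without cells high in any of the 4 genes and 0.176% without the highest 8% of Scrublet scores. Where cells were left out, the value changed by construction with the cells kept, and for the other settings the cause was not tested.

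With 1 library, all values describe the pooled mice and not the spread between them. Corrected counts carry no recoverable depth, so a value above 0 need not be a molecule of that cell. Muc2 was above 0 in 32.6% of stromal reference cells, and the source of these values was not tested. Doublets could not be called reliably. Stromal-mean subtraction and medians gave no ratio over the stromal reference, whose medians are 0 or whose mean is then 0.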
